A study of Rattus norvegicus with 12 samples.

Results

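The conjugation enzymes described here are the glucuronosyltransferases, sulfotransferases and glutathione transferases of rat liver. They were chosen by name: probe sets with exactly 1 annotated gene symbol that begins with Ugt1, Ugt2, Sult, Gsta, Gstm, Gstp, Gstt, Gsto, Gstk or Mgst. This gave 37 genes with 38 probe sets, of 14506 genes with 15310 such probe sets on the array. Affymetrix Rat Gene 1.0 ST arrays measured RNA in the livers of 12 rats, all male Sprague-Dawley with diet-induced obesity, 4 for each of 3 diets. The animals were 12 weeks old when the diets began and 20 weeks old at the end of 8 weeks of free feeding. Protein came from skim milk powder in the dairy diet, the leucine diet combined casein (7.1% of energy) with free leucine (2.9%), and the casein diet (10%) was the control. All diets were high in fat and sucrose, held 4.6 kcal per gram and gave 10% of energy as protein, so there was no lean or low fat group. The leucine diet also held less casein, and skim milk powder holds more than protein, so these parts of each diet cannot be told apart.

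Conjugation makes fat-soluble drugs, steroid and thyroid hormones, bilirubin and bile acids soluble enough to leave the body in bile or urine. The Ugt enzymes of the endoplasmic reticulum add glucuronic acid, the cytosolic Sult enzymes add sulfate, and the glutathione transferases add glutathione to reactive compounds such as the breakdown products of oxidised lipids. Liver is the main organ of this work, and many of the genes respond to nuclear receptors that sense foreign compounds and bile acids, to the aryl hydrocarbon receptor, or to the oxidative stress factor NRF2.

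The 37 genes comprised 7 of the Ugt2 family, 5 of Sult1, 6 of Sult2 and the other Sult families, 3 of Gsta, 8 of Gstm, 2 of Gstt, 4 of Gstp, Gsto and Gstk together, and 2 of Mgst. The Ugt1 family had 0 members, because its 1 probe set carries several symbols, as do 7 more probe sets of these families. These 8 were left out. Members of a family can be alike in sequence, mainly within Ugt2b, Gsta, Gstm and Sult2a, so a probe set may also bind RNA of a relative. Values are log2 signals, and levels of different genes are not set against each other, since probes differ in brightness. In 24 of 37 genes the mean signal lay above that of the median probe set.

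All 9 hepatocyte markers measured lay above the median probe set, with a mean log2 signal between 12.24 and 12.75 in the 12 livers. None of the 5 bile duct markers did (0 of 5). Arrays were alike in median signal (4.43 to 4.62), while the SD over probe sets was 2.07 in dairy replicate 3 and 2.14 in casein replicate 4, against 2.24 to 2.33 in the other 10 arrays. In whole liver, fewer cells of a type and less RNA per cell cannot be told apart. Samples were numbered 1 to 4 within each diet and are read here as 1 sample per rat, so p-values measure only how these samples spread, which may in part be technical.

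The promoters of the 4 members with the smallest p between dairy and casein are shown because the results turn on these genes. Each runs from 250 bases before to 50 after the gene's start (RefSeq, GRCr8), and capitals mark matches to 1 of 6 motifs on either strand.
Ugt2b1 (chr14:21378632-21378931, plus strand): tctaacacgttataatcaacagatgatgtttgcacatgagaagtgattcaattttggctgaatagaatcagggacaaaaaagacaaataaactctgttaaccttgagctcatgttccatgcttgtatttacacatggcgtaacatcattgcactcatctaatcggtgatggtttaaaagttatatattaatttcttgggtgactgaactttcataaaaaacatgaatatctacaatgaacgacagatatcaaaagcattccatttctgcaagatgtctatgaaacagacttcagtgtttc
Gstm7 (chr2:198260270-198260569, minus strand): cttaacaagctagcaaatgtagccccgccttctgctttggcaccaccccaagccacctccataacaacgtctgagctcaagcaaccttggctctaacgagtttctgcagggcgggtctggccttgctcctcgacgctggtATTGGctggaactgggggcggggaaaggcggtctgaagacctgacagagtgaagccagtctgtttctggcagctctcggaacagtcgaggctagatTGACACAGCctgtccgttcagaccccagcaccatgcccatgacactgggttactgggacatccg
Gstk1 (chr4:72085364-72085663, plus strand): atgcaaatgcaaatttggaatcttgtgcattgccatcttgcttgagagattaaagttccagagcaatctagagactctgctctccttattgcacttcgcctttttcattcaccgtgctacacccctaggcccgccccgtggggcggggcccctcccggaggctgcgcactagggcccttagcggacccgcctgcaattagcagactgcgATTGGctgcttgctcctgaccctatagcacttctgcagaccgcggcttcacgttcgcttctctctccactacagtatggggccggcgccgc
Sult1c2 (chr9:7436731-7437030, plus strand): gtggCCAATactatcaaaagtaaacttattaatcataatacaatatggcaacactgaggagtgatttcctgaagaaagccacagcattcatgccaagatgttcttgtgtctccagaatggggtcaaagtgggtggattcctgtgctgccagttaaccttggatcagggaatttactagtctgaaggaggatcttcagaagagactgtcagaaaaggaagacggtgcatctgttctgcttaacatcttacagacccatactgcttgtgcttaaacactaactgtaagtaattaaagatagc
The motifs were TATAAA (the TATA box), CCAAT (the CCAAT box), GTTAAT (part of the HNF1 site), AGGTCA (a nuclear receptor core site), TGACNNNGC (the antioxidant response element that NRF2 binds) and GCGTG (the core that the aryl hydrocarbon receptor binds). Motifs could overlap. A CCAAT box lay 41 bases before the start of Gstk1 and 110 before that of Gstm7, both on the strand opposite to the gene. In Sult1c2 it lay 246 bases before the start, on the gene's own strand. Gstm7 also held TGACNNNGC 14 bases before its start, and Ugt2b1 held none of the 6. Promoters were found for 31 of 37 members. CCAAT stood in 14 of these 31 and in 37.7% of all 27457 promoters in the table, and TGACNNNGC in 5 of 31 and 12.2%. TATAAA stood in 8 of 31 (14.3% of all), GTTAAT in 4 (7.37%), AGGTCA in 3 (15.7%) and GCGTG in 5 (31.1%). A match describes these letters only and does not show that a factor binds.

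Most of these enzymes had lower signals in livers of dairy-fed than of casein-fed rats, but no single member passed the test. The median log2 difference was -0.24 over the 37 genes, against -0.02 over all probe sets, and 27 of 37 were lower, against 53.1% of all probe sets. Shares and medians over all probe sets, here and below, are not matched for brightness. Of the 37 members, 24 lay above the median probe set, and dim signals understate differences. The median difference of the 37 was -0.48 without dairy replicate 1, -0.39 without casein replicate 3, -0.15 without dairy replicate 4, and -0.49 with array weights, which down-weight arrays of wide residual spread. The 4 members with the smallest p were Gstm7, Ugt2b1, Gstk1 and Sult1c2, with means 2.62-fold, 3.83-fold, 2.18-fold and 1.82-fold lower with dairy. By limma with Benjamini-Hochberg adjustment over all probe sets, 0 of 37 members were called, where 0.0849% of all probe sets were (13 of 15310). At an unadjusted p under 0.05, 6 of 37 (16.2%) were lower and 0 higher, against 6.32% and 4.59% of all probe sets. In 3 members all 4 dairy livers lay below all 4 casein livers (2.18% of all probe sets), and in 0 above (2.09%). The count of 6 was 12 without dairy replicate 1 (11.1% of all probe sets in either direction) and 11 without casein replicate 3 (10.2%), where all 12 arrays gave 10.9%. With array weights it was 18, or 48.6% against 29.3% of all probe sets, and 8 of 37 (21.6%) were called, against 7.72%. These weights were 2.83 and 1.39 for dairy replicates 2 and 4, and 1.58 and 2.09 for casein replicates 1 and 2. The other dairy and casein arrays had 0.29 to 0.73, so the weighted calls rest mostly on 2 livers per diet.

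**Figure D1:**
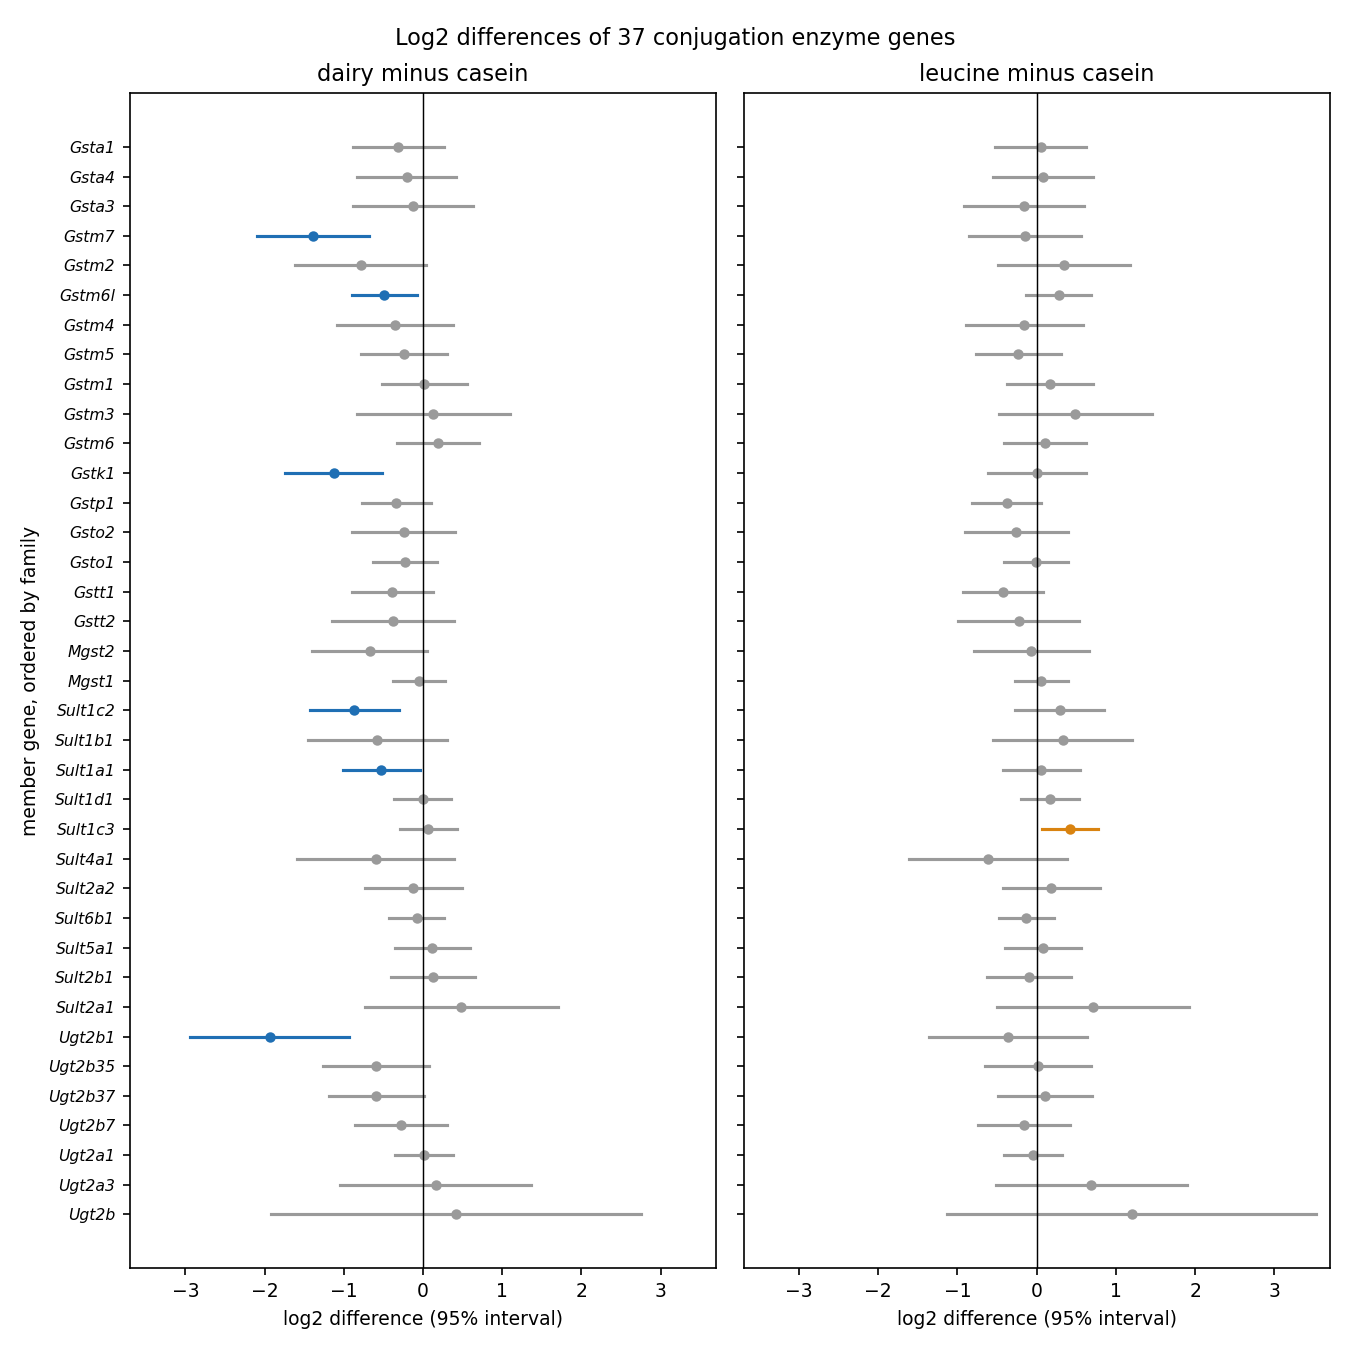
Log2 differences of the 37 member genes for dairy minus casein (left) and leucine minus casein (right), ordered by family. Points are limma estimates, lines their 95% intervals, and colour marks an unadjusted p under 0.05: 6 genes on the left, all below 0, and Sult1c3 alone on the right, above 0.

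Ugt2b1, a glucuronosyltransferase of steroids and drugs, had log2 signals of 8.37, 6.43, 6.47 and 6.60 in the dairy livers, of 8.93, 8.42, 8.36 and 8.45 in the leucine livers, and of 9.47, 9.80, 8.11 and 8.23 in the casein livers. Dairy replicates 2, 3 and 4 lay below all other livers, and dairy replicate 1 lay among the casein livers. The difference from casein was -1.94 ± 0.462 (SE, limma adjusted p = 0.176).

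Gstm7, a glutathione transferase of the mu class, had 8.77, 7.20, 8.01 and 7.33 in the dairy livers, 9.46, 9.06, 8.80 and 8.96 in the leucine livers, and 9.11, 9.49, 8.64 and 9.63 in the casein livers. All dairy livers lay below all leucine livers, and dairy replicate 1 alone lay above a casein liver. The difference between dairy and casein was -1.39 ± 0.326 (SE, limma adjusted p = 0.174).

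Gstk1, the kappa class transferase of mitochondria and peroxisomes, had 9.52, 9.37, 8.50 and 9.35 in the dairy livers, 10.71, 10.63, 9.79 and 10.12 in the leucine livers, and 10.78, 10.50, 9.87 and 10.07 in the casein livers. The dairy livers did not overlap with either other diet, and dairy replicate 3 was the lowest of the 12. Dairy minus casein was -1.13 ± 0.283 (SE, limma adjusted p = 0.204), while leucine minus casein was 0.00 with a 95% interval of -0.61 to 0.62.

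Sult1c2, of the phenol sulfotransferase family, had 7.14, 6.39, 7.07 and 6.04 in the dairy livers, 7.91, 8.06, 7.23 and 8.08 in the leucine livers, and 7.42, 7.70, 7.38 and 7.60 in the casein livers. Again every dairy liver lay below every liver of both other diets. Its difference between dairy and casein was -0.87 ± 0.259 (SE, limma adjusted p = 0.295).

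Gstm6l, a further mu class gene, was dim, with 3.31, 2.97, 3.17 and 3.08 in the dairy livers, 4.35, 3.66, 3.81 and 3.80 in the leucine livers, and 3.47, 4.08, 3.47 and 3.47 in the casein livers. The dairy livers lay below all others here too. Its difference of -0.49 ± 0.189 (SE, limma adjusted p = 0.387) rests partly on casein replicate 2, without which it was -0.34.

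Sult1a1, the main phenol sulfotransferase of liver, had 10.91, 11.04, 10.44 and 11.34 in the dairy livers, 11.79, 11.77, 11.38 and 11.12 in the leucine livers, and 11.74, 11.20, 11.22 and 11.67 in the casein livers. Dairy replicate 4 lay above casein replicates 2 and 3, so the diets overlapped. The difference was -0.52 ± 0.223 (SE, limma adjusted p = 0.435).

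**Figure D2:**
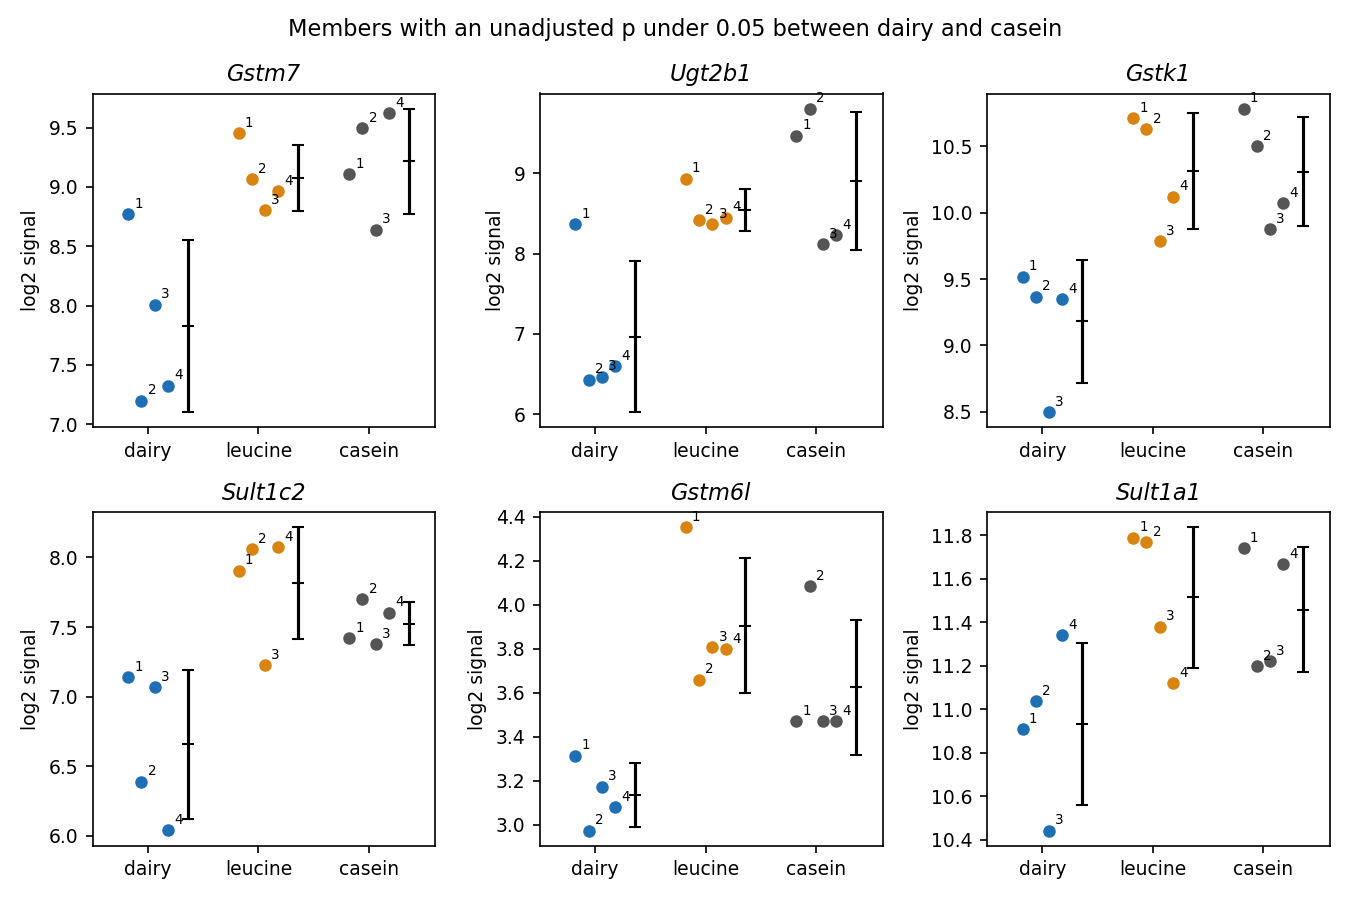
Log2 signals of the 6 members with an unadjusted p under 0.05 between dairy and casein, in the 4 livers of each diet (numbers are replicates). Bars beside the points are the mean and SD; the dairy points of Gstk1, Sult1c2 and Gstm6l lie wholly below those of casein, while dairy replicate 1 reaches the casein range for Ugt2b1 and Gstm7.

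In the Ugt2 family 4 of 7 genes were lower with dairy and the median difference was -0.28. That median rests on single arrays, being -0.04 without casein replicate 4 and -0.60 without casein replicate 3. Beside Ugt2b1, the lower ones were Ugt2b37 (-0.59 ± 0.276 SE), Ugt2b35 (-0.59 ± 0.308) and the dim Ugt2b7 (-0.28). Ugt2b37 averaged 8.06 ± 0.275 with dairy, 8.76 ± 0.406 with leucine and 8.65 ± 0.551 with casein (SD, n = 4 each), and the dairy livers overlapped with the casein livers. Ugt2b35 averaged 9.26 ± 0.649 with dairy, 9.87 ± 0.160 with leucine and 9.85 ± 0.503 with casein, with dairy replicate 1, at 10.20, near the top of the casein livers. Ugt2a3, Ugt2b and the dim Ugt2a1 differed by 0.16 (interval -1.04 to 1.37), 0.42 (-1.91 to 2.76) and 0.02 (-0.35 to 0.38), so none was clearly higher or lower. The Ugt2b value rests on dairy replicate 3, at 7.0, and casein replicate 3, at 5.38. Its median signal was 10.38 with dairy and 10.31 with casein.

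Of the 5 Sult1 genes 4 were lower with dairy, with a family median of -0.52, or -0.30 without dairy replicate 3 and -0.32 without casein replicate 1. Sult1b1, which sulfates thyroid hormones, had 10.02, 8.79, 8.25 and 9.26 in the dairy livers, 10.44, 10.19, 9.54 and 9.77 in the leucine livers, and 10.43, 9.87, 8.68 and 9.64 in the casein livers. Its difference from casein of -0.58 ± 0.403 (SE, limma adjusted p = 0.611) was within the spread of its livers, which overlapped. Sult1d1 was dim, with a 95% interval of its difference of -0.37 to 0.36, and Sult1c3 differed by 0.07 (-0.29 to 0.42).

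Sult2 and the other Sult families had 3 of 6 genes lower and a median of 0.02. Sult2a1, which sulfates hydroxysteroids and bile acids, had 10.13, 8.11, 9.29 and 8.07 in the dairy livers, 9.08, 9.45, 9.31 and 8.67 in the leucine livers, and 10.02, 7.63, 7.41 and 8.61 in the casein livers. Its spread within a diet was wide in the dairy and casein livers, and its difference of 0.48 had a 95% interval of -0.73 to 1.70. Sult4a1, best known from brain, differed by -0.60 ± 0.458 (SE), with casein replicate 2 at 6.86 against 4.24 to 5.45 in the other 11 livers. The remaining 4 genes, Sult2a2, Sult2b1, Sult5a1 and Sult6b1, differed by -0.12 to 0.13.

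Among the glutathione transferases the alpha class was lower for 3 of 3 genes with a median of -0.21, and none of the 3 had an unadjusted p under 0.05. Gsta1, a major alpha enzyme of liver, averaged 11.50 ± 0.424 with dairy, 11.86 ± 0.297 with leucine and 11.81 ± 0.479 with casein (SD, n = 4 each). Gsta4, which clears the lipid peroxidation product 4-hydroxynonenal, averaged 7.78 ± 0.619 with dairy, 8.07 ± 0.127 with leucine and 7.99 ± 0.455 with casein, and its other probe set gave a dairy difference of -0.36 beside -0.21. Gsta3 was dim and differed by -0.12 (interval -0.88 to 0.63).

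In the mu class 5 of 8 genes were lower with dairy, by a family median of -0.30. Gstm2 had 10.05, 8.58, 8.51 and 9.31 in the dairy livers, 10.73, 9.83, 10.03 and 10.40 in the leucine livers, and 10.23, 10.42, 8.93 and 10.03 in the casein livers. Dairy replicate 1 lay among the casein livers and casein replicate 3 among the dairy livers, and the difference was -0.79 ± 0.382 (SE, limma adjusted p = 0.470). Gstm1, a major mu enzyme of liver, differed by 0.02 (interval -0.52 to 0.56), with 11.22 to 12.18 in the dairy livers and 11.16 to 11.89 in the casein livers. The remaining 4 genes, Gstm3, Gstm4, Gstm5 and Gstm6, differed by -0.35 to 0.19.

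Both theta class genes were lower with dairy, with differences of -0.39 ± 0.234 for Gstt1 and -0.38 ± 0.354 for Gstt2 (SE) and overlapping livers. Gstp1, the pi class enzyme that rises in precancerous foci of rat liver, differed by -0.34 ± 0.201 (SE). Gsto1, which reduces dehydroascorbate, and Gsto2 differed by -0.23 ± 0.187 and -0.24 ± 0.30 (SE). Mgst2, a membrane enzyme that in human cells also makes leukotriene C4, averaged 9.51 ± 0.344 with dairy, 10.11 ± 0.511 with leucine and 10.18 ± 0.679 with casein (SD, n = 4 each), a dairy difference of -0.67 ± 0.335 (SE, limma adjusted p = 0.487). Mgst1, the abundant membrane enzyme of the endoplasmic reticulum, differed by -0.05 (interval -0.38 to 0.28), and its 12 livers lay between 12.21 and 12.81.

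With leucine, these enzymes lay on both sides of casein. The median log2 difference was 0.05 over the 37 genes, against -0.03 over all probe sets, with 21 higher and 16 lower, against 56.2% of all probe sets lower. No member was called by limma (0 of 37), nor was any probe set on the array (0%). At an unadjusted p under 0.05, 1 of 37 was higher and 0 lower, against 1.39% and 1.92% of all probe sets. With single arrays left out in turn, 0 to 3 members had such a p, against 2.32% to 8.87% of all probe sets. The median was -0.06 without casein replicate 3. All 5 Sult1 genes had higher means with leucine than with casein, by 0.06 to 0.42, and both theta class genes had lower ones. The direction did not hold for Sult1a1, which differed by -0.03 without leucine replicate 1, and Sult1d1 then differed by 0.0077.

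Sult1c3 was that 1 member, with log2 signals of 10.38, 10.08, 9.94 and 10.38 in the leucine livers and of 9.97, 9.91, 9.44 and 9.78 in the casein livers. Leucine replicate 3 lay below casein replicate 1, so the diets overlapped by that liver. The difference was 0.42 ± 0.164 (SE, limma adjusted p = 0.999). Gstp1 had 5.98, 5.87, 5.75 and 5.76 in the leucine livers and 6.12, 6.51, 6.07 and 6.17 in the casein livers. It was the 1 member whose leucine livers all lay below all casein livers (1.38% of all probe sets do), by -0.38 ± 0.201 (SE, limma adjusted p = 0.999), and 0 members had all leucine livers above (1.06%). Gstt1, which conjugates small halogenated compounds, averaged 7.70 ± 0.353 with leucine and 8.13 ± 0.402 with casein (SD, n = 4 each), a difference of -0.42 ± 0.234 (SE).

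The 95% interval of the leucine difference included 0 for every member but Sult1c3, so also for Gstp1 and Gstt1. Sult2a1 differed by 0.71 ± 0.561, Ugt2a3 by 0.69 ± 0.556 and Gstm3 by 0.49 ± 0.445 (SE). The Gstm3 difference was -0.02 without leucine replicate 1, whose signal of 6.5 lay above the 4.01 to 4.92 of the other leucine livers. Sult4a1 differed by -0.61 ± 0.458, or by -0.09 without casein replicate 2. Gstm6l and Sult1c2 differed by 0.28 ± 0.189 and 0.29 ± 0.259, and the dim Sult1d1 and Gstm5 by 0.17 ± 0.167 and -0.23 ± 0.248 (SE). Of the members with the largest dairy differences, Gstm7 differed by -0.15 with leucine (interval -0.85 to 0.56) and Ugt2b1 by -0.36 (-1.37 to 0.64), intervals that still allow sizeable differences either way.

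Between the test diets, which were compared on the same dairy arrays as above, signals were mostly higher with leucine than with dairy. The median difference was 0.23 over the 37 genes, against -0.01 over all probe sets, and 27 were higher and 10 lower, against 52% of all probe sets lower. No member was called by limma (0 of 37, and 0% of all probe sets). At an unadjusted p under 0.05, 9 of 37 (24.3%) were higher with leucine and 0 lower, against 3.65% and 3.3% of all probe sets. Leucine and dairy livers did not overlap, with leucine higher, for Sult1c2, Gstm6l, Gstk1 and Gstm7, 4 of 37 genes against 2.04% of all probe sets, and the reverse held for 0 (3.04%). Their differences were 1.16 ± 0.259, 0.77 ± 0.189, 1.13 ± 0.283 and 1.25 ± 0.326 (SE, limma adjusted p from 0.604 to 0.648). Ugt2b1 differed by 1.57 ± 0.462, Gstm2 by 1.14 ± 0.382, Sult1b1 by 0.90 ± 0.403, Ugt2b37 by 0.69 ± 0.276 and Sult1a1 by 0.58 ± 0.223 (SE). The largest adjusted p among these 9 was 0.708.

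Livers of the same diet also varied in these enzymes. The SD within diets had a median of 0.43 over the 37 members, against 0.29 over all probe sets (0.44 against 0.37 among those above the median probe set). In 14 of 37 members the largest gap between diet means exceeded the member's own SD within diets. The same count was not made over all probe sets, so it does not show a diet effect. Members tended to be high or low together in a liver. Of the 24 members above the median probe set, dairy replicate 1 was the highest of its diet in 22 (91.7%, against 34.1% of the 7655 probe sets above the median). Leucine replicate 1 was the highest of its diet in 17 of 24 (70.8%, against 29.8%). Casein replicate 3 was the lowest of its diet in 19 of 24 (79.2%, against 21.1%). These livers were singled out after their values were seen.

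**Figure D3:**
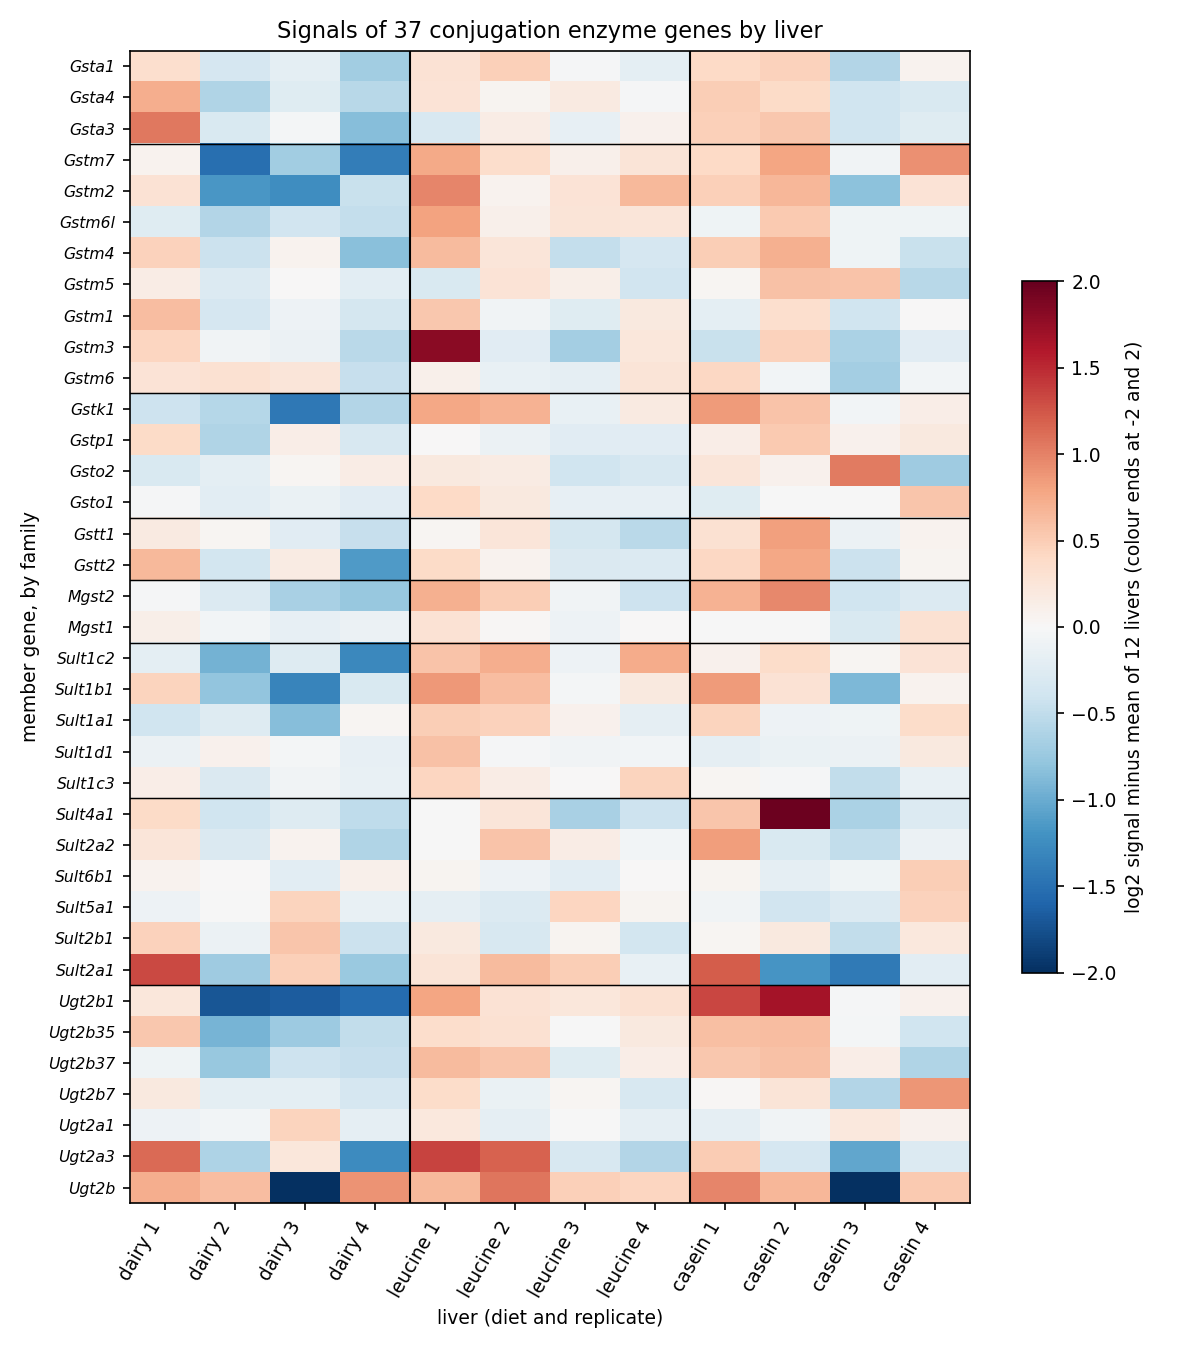
Log2 signal of each member gene (rows, by family) in each of the 12 livers, as the deviation from that gene's mean over all 12. Blue is below and red above the mean, with colour ending at -2 and 2; dairy replicates 2 to 4 and casein replicate 3 are mostly blue, and dairy replicate 1, leucine replicate 1 and casein replicate 1 mostly red.

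Averaged over those 24 members, the log2 deviation from the 12-liver mean was 0.31, -0.54, -0.50 and -0.57 in the dairy livers. It was 0.52, 0.39, -0.03 and 0.03 in the leucine livers, and 0.49, 0.38, -0.51 and 0.05 in the casein livers. Dairy replicates 2, 3 and 4 and casein replicate 3 were thus the low livers, and dairy replicate 1 stood with the high ones. Over all probe sets above the median, the same deviation was -0.34 in dairy replicate 3 and lay between -0.14 and 0.16 in the other 11 livers. Without Ugt2b, the value of casein replicate 3 was -0.34 and that of dairy replicate 3 was -0.40. Against the mean of its own diet, replicate 1 deviated by 0.64 with dairy, 0.29 with leucine and 0.38 with casein over the 24 members. Replicates 3 and 4 lay below the mean of their own diet in all 3 diets. The labels do not say whether equal numbers stand for a shared step.

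Genes of inflammation were not level across these livers. All 5 neutrophil markers and all 7 acute phase genes measured had higher means with dairy than with casein, by 0.87 and 0.72 on average. With leucine, all 5 neutrophil markers and 6 of 7 acute phase genes were also higher than with casein, by 0.52 and 0.30 on average. Of the 5 neutrophil markers, 2 lay above the median probe set. The mean neutrophil signal was 3.93, 5.71, 4.44 and 6.33 in the dairy livers, 3.68, 4.17, 6.06 and 5.09 in the leucine livers, and 3.55, 3.68, 5.32 and 4.36 in the casein livers. Casein replicate 3 had the highest value of its diet and dairy replicate 1 the lowest of its own. The mean acute phase signal was 12.31, 12.82, 11.57 and 12.76 in the dairy livers, 10.50, 12.21, 12.52 and 12.53 in the leucine livers, and 11.92, 10.24, 12.35 and 12.05 in the casein livers. Hepatocyte markers averaged between 12.24 and 12.60 with dairy, 12.35 and 12.60 with leucine, and 12.47 and 12.75 with casein. Against casein, 8 of 9 had a lower mean with dairy (-0.18 on average over the list) and 8 of 9 with leucine (-0.13). Stellate cell markers were higher with dairy than with casein in 5 of 6 (by 0.30 on average), and endothelial markers in 0 of 3 (by -0.27). With leucine, 2 of 6 stellate cell markers (by 0.08) and 2 of 3 endothelial markers (by 0.04) were higher than with casein. Of 6 Kupffer cell and macrophage markers, 3 were higher and 3 lower than with casein, both with dairy (0.15 on average) and with leucine (0.02). Of 4 erythroid markers, 3 were higher with dairy (0.30 on average) and 4 with leucine (0.63). The part of these cell types, of inflammation and of single arrays in the dairy difference was not tested.

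**Figure D4:**
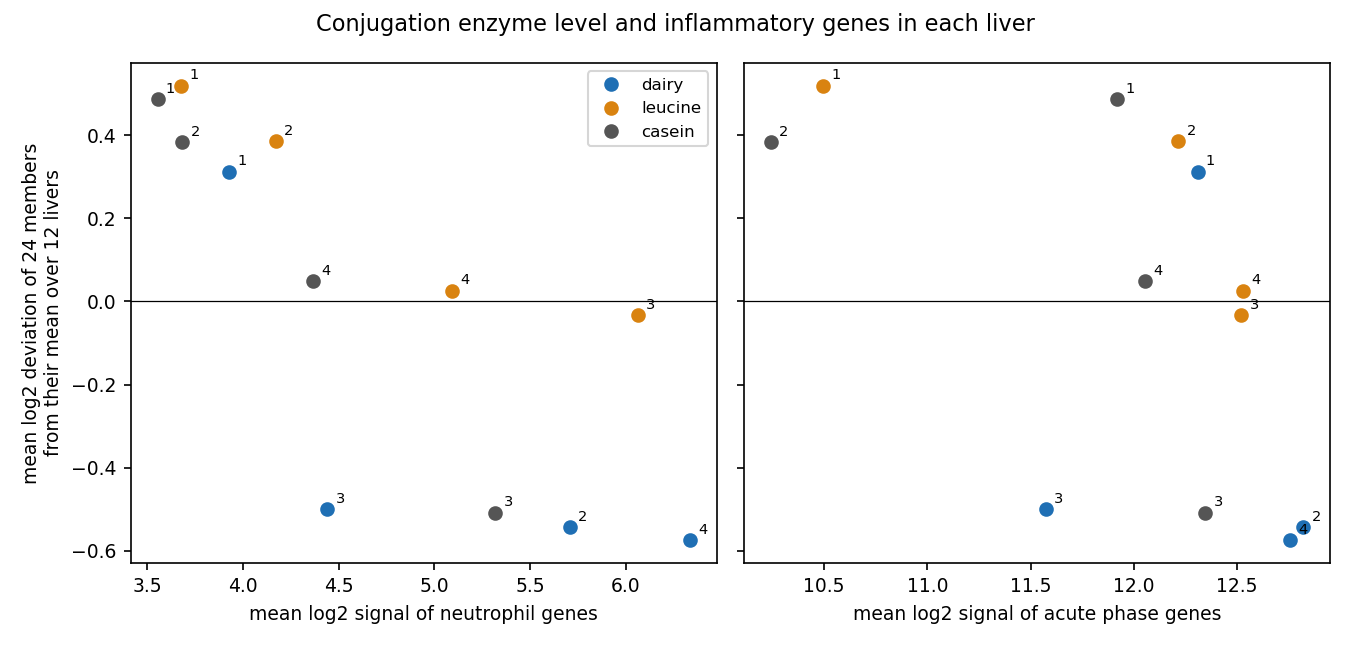
Mean log2 deviation of the 24 brighter members in each liver (vertical) against the mean log2 signal of 5 neutrophil genes (left) and 7 acute phase genes (right). Points are livers, coloured by diet and numbered by replicate. Dairy replicates 2 and 4 lie low on the vertical axis with high neutrophil signals, and leucine replicate 1, casein replicate 1 and casein replicate 2 lie high with low ones. Other livers differ: dairy replicate 3 lies at -0.50 with a neutrophil signal of 4.44, and leucine replicate 3 at -0.03 with 6.06. On the right, dairy replicate 3 lies low with an acute phase signal of 11.57, and dairy replicate 1 high with 12.31.

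Ugt2b stood apart from its relatives. Its log2 signals were 10.44, 10.32, 7.0 and 10.61 in the dairy livers, 10.37, 10.78, 10.19 and 10.15 in the leucine livers, and 10.69, 10.38, 5.38 and 10.24 in the casein livers. In 10 livers it lay between 10.15 and 10.78, and in dairy replicate 3 and casein replicate 3 it was lower by over 3 log2 units. The other Ugt2 genes shown were not low in that way. In dairy replicate 3, Ugt2b35 had 8.94, Ugt2b37 had 8.08, Ugt2b1 had 6.47 and Ugt2a3 had 7.84, each above at least 1 other dairy liver. In casein replicate 3, Ugt2b35 had 9.62 and Ugt2b37 had 8.62, both above casein replicate 4, while Ugt2b1 (8.11) and Ugt2a3 (6.56) were the lowest of the casein livers, next to 8.23 and 7.27. The leucine difference of 1.20 ± 1.08 (SE) became -0.07 without casein replicate 3.

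**Figure D5:**
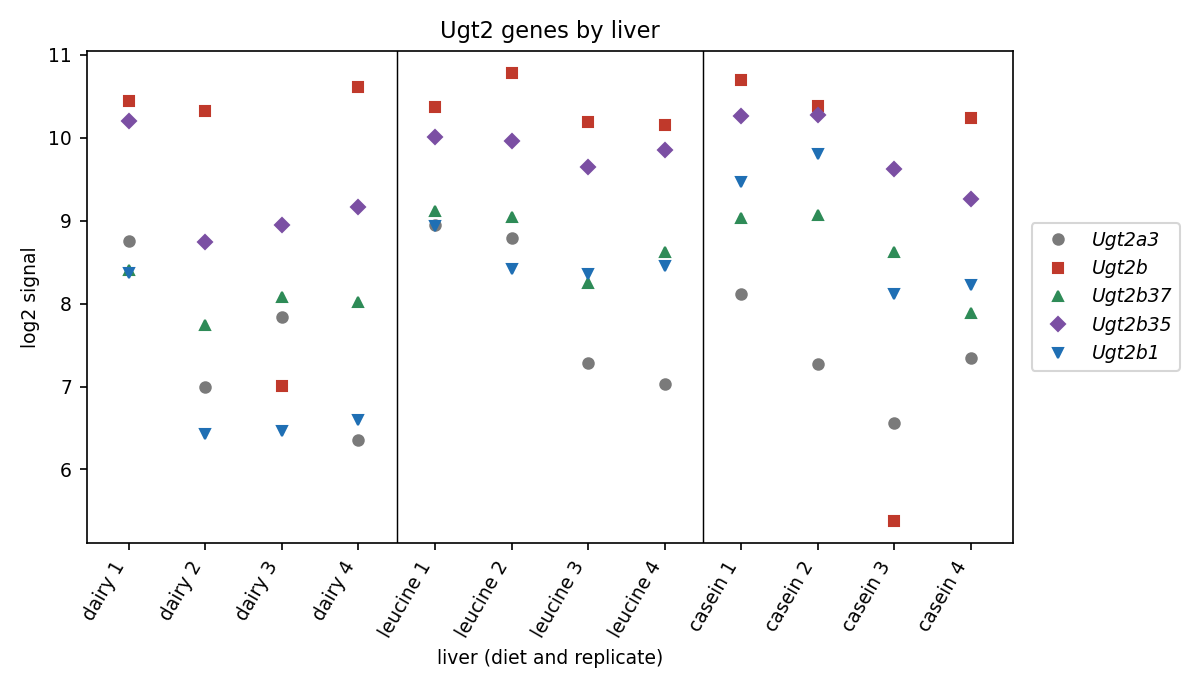
Log2 signals of the 5 brighter Ugt2 genes in each of the 12 livers. The squares of Ugt2b lie between 10.15 and 10.78 in 10 livers and at 7.0 and 5.38 in dairy replicate 3 and casein replicate 3, while Ugt2b1 (downward triangles) has its lowest points in dairy replicates 2, 3 and 4.

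Neighbouring genes did not share 1 difference. In RefSeq's order on chromosome 14 of GRCr8, 9 members are ordered as Sult1d1, Sult1b1, Ugt2a1, Ugt2a3, Ugt2b, Ugt2b37, Ugt2b35, Ugt2b7 and Ugt2b1. Between dairy and casein, the genes at the far end all had negative differences: Ugt2b37 (-0.59), Ugt2b35 (-0.59), Ugt2b7 (-0.28) and Ugt2b1 (-1.94). Before them, Ugt2a1, Ugt2a3 and Ugt2b differed by 0.02, 0.16 and 0.42, and Sult1d1 and Sult1b1 by -0.004 and -0.58. The Ugt2b value had an interval of -1.91 to 2.76 and rests on dairy replicate 3 and casein replicate 3. On chromosome 2 the mu class genes run as Gstm5, Gstm6l, Gstm7, Gstm6, Gstm3, Gstm2, Gstm1 and Gstm4. In that order they differed by -0.24, -0.49, -1.39, 0.19, 0.13, -0.79, 0.02 and -0.35, and Gstm5, Gstm6l and Gstm6 were dim.

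Of 58 genes listed for cofactor supply, nucleotide transport, export, removal of the conjugate, other conjugation reactions, regulators and receptor targets, 52 were measured, and 40 of 52 had lower means with dairy than with casein, where 53.1% of all probe sets did. Their median difference was -0.31, against -0.02 over all probe sets. Limma called 0 of 52, and at an unadjusted p under 0.05, 5 were lower and 3 higher, near the 6.32% and 4.59% of all probe sets. With array weights 6 of 52 were called, where 7.72% of all probe sets were, among them Gnmt and Tpmt (lower) and Papss1 and Sts (higher). All 8 genes of other conjugation reactions were lower, with a median of -0.55. The 6 exporters, which carry conjugates out of the cell, had a median of 0.11, with 3 lower and 3 higher.

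Gnmt, which methylates glycine, had 8.21, 7.84, 8.45 and 7.97 in the dairy livers and 9.63, 8.88, 9.04 and 8.94 in the casein livers, without overlap (-1.0 ± 0.206 SE, limma adjusted p = 0.102). Without casein replicate 4 its limma adjusted p was 0.0444, and over all alternatives it ran from 0.0106 to 0.319. Tpmt, which methylates thiopurine drugs, differed by -0.70 ± 0.244 (SE), with dairy replicate 1, at 7.21, above casein replicate 3, at 7.01. The cytochrome P450 Cyp3a9 differed by -1.59 ± 0.476, with every dairy liver below every casein liver, the sulfatase Arsb by -0.96 ± 0.349, and Arnt, the partner of the aryl hydrocarbon receptor, by -0.66 ± 0.259 (SE). Papss1, which makes the sulfate donor of the Sult enzymes, differed by 0.67 ± 0.212 (SE), and its livers overlapped. It was dim, with signals of 4.01 to 5.39 in the 12 livers. Papss2, also listed for cofactor supply, had signals of 7.60 to 9.46 and differed by -0.25 ± 0.310 (SE). The liver transcription factor Cebpa differed by 0.84 ± 0.280, the steroid sulfatase Sts by 0.70 ± 0.242, Arsa by 0.44 ± 0.221, and Slc35b2, which carries the sulfate donor into the Golgi, by 0.23 ± 0.122 (SE). For Cebpa and Slc35b2 all 4 dairy livers lay above all 4 casein livers, so 2 of 52 lay wholly higher and 2 wholly lower (2.09% and 2.18% of all probe sets).

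With leucine, 27 of the 52 were lower than with casein and 25 higher (median -0.04), and limma called 0. At an unadjusted p under 0.05, 1 was lower and 1 higher, near the 1.92% and 1.39% of all probe sets. Acsm5, of the medium-chain acyl-CoA synthetases that activate acids for conjugation with glycine, had 6.51, 7.15, 5.83 and 6.41 in the leucine livers and 8.72, 8.76, 7.69 and 8.75 in the casein livers, without overlap. Its difference was -2.0 ± 0.476 (SE, limma adjusted p = 0.999). The related Acsm3 differed by 0.94 ± 0.384 (SE), with leucine replicate 1, at 6.02, among the casein livers. Sts, Ahr, Cyp1a2 and Baat were higher by 0.49, 0.66, 0.45 and 0.30, and Hnf4a, Gnmt, Keap1 and Nqo1 differed by -0.45, -0.42, -0.29 and -0.49, all of them with an unadjusted p of 0.0555 or more.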

How the data were processed

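Liver RNA of 12 rats was hybridised to 1 array each. The deposited values are log2 signals, 1 per probe set and array, which the authors made in Affymetrix Expression Console, as per the submitters' processing notes. How that program summarised and normalized the arrays, in which version and on which build, is not given in the sources used here. RNA came from frozen liver by Trizol and RNeasy columns, per the labels' protocols. A log2 difference of array signals understates the change of dim genes, and 4 arrays per diet limit the precision.

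Samples were grouped by the diet in their labels. Of the probe sets in the file, the 15310 with exactly 1 symbol in the platform annotation were fitted with limma 3.58.1 in R 4.3.3 (3 diet means over 12 arrays, eBayes defaults, two-sided, Benjamini-Hochberg over all 15310, threshold 0.05). The fit was also run on simulated data with independent noise and arrays of equal quality. That run does not show how the fit performs on these unequal arrays. Each gene was counted by its brightest probe set, and all 37 Entrez IDs had the same symbol in RefSeq. The members, gene lists and tests were chosen with earlier results of these data known. Genes named were the 12 members of smallest p in each comparison with casein, 8 between leucine and dairy, the brightest of each family, 13 key members measured, and up to 5 pathway genes each way. The low Ugt2b livers, the neighbouring genes, Papss2, and the other members given by range were chosen after values were seen. Alternatives covered normalization, centring, probe set filters, moderation, array weights, a replicate block, the arrays fitted, and leaving out arrays. Promoter sequences are RefSeq's for GRCr8.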

Additional observations from a re-analysis of the deposited data

Results flagged for a closer look

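In 84 groups of 4 livers (28 named members in 3 diets), 8 had 1 liver far from the other 3 by Dixon's criterion, which chance meets in about 1 of 20 groups. For Ugt2b, dairy replicate 3 had a log2 signal of 7.0, next to 10.32 in the nearest dairy liver, and casein replicate 3 had 5.38, next to 10.24. For Ugt2b1, dairy replicate 1 had 8.37, next to 6.60, and leucine replicate 1 had 8.93, next to 8.45. For Gstk1, dairy replicate 3 was low at 8.50, next to 9.35. The dim Gstm6l was high in casein replicate 2 at 4.08, next to 3.47. The dim Sult1d1 was high in leucine replicate 1 at 3.40, next to 2.79, and in casein replicate 4 at 3.02, next to 2.70.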

How the results depend on the processing

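With dairy against casein, 0 members were called under quantile normalization, centring, all probe sets, no dim probe sets, trend and robust, the 8 arrays alone, averaged probe sets, without both narrow arrays, without both arrays low for Ugt2b (chosen after seeing the data) and with each array left out. Array weights gave 8 calls (Gstm7, Ugt2b1, Gstk1, Sult1c2, Gstm6l, Ugt2b37, Gstm2 and Ugt2b35). The replicate block gave 1 (Gstk1, limma adjusted p = 0.041). The 6 members at an unadjusted p under 0.05 became 18 with array weights (29.3% of all probe sets), 12 with the replicate block (11.8%), and 5 to 12 with single arrays left out (6.11% to 21.2%). All were lower with dairy. The replicate numbers are not read as pairs, since same-numbered livers of different diets correlated from -0.505 to 0.590 (12 pairs, median 0.285, against -0.152 over the 36 other pairs), and 2 of 12 livers were closest to their own number. Of the 52 pathway genes, array weights called 6 between dairy and casein, and Gnmt was also called without both narrow arrays (limma adjusted p = 0.0423) and without casein replicate 4. For leucine against casein and leucine against dairy, 0 members were called under each alternative. For leucine against casein, the count of 1 became 5 with array weights (13.5%, against 12.9% of all probe sets). It was 2 with the replicate block (3.86% of all probe sets) and 2 with the 8 arrays alone (3.52%). Without both arrays low for Ugt2b it was 0 (5.48%), and with single arrays left out 0 to 3 (2.32% to 8.87%). The 9 for leucine against dairy became 6 to 12, where 4.54% to 14% of all probe sets had such a p. With single arrays left out, the member median for dairy against casein ran from -0.48 to -0.15, and the family medians from -0.60 to -0.0372 for Ugt2, -0.64 to -0.30 for Sult1, -0.50 to -0.0582 for Gsta, -0.51 to -0.14 for Gstm and -0.57 to -0.16 for Gstt. The causes were not tested.

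The sign of small differences turned. Between dairy and casein, Sult2a1 was -0.0598 with array weights. Gstm1 was -0.0104 with centring, -0.24 with array weights, -0.0776 without both arrays low for Ugt2b, and -0.20 to 0.15 with single arrays left out. Mgst1 was 0.0175 with quantile normalization, 0.0903 without both narrow arrays, and -0.15 to 0.0526 with single arrays left out, and Gsta3 ran from -0.49 to 0.15. Between leucine and casein, Gstk1 was -0.19 with array weights, -0.0742 without both narrow arrays, -0.14 without both arrays low for Ugt2b, and -0.14 to 0.18 with single arrays left out. Sult1a1 and Ugt2b were -0.0211 and -0.0671 without both arrays low for Ugt2b. With single arrays left out Sult1a1 ran from -0.0342 to 0.19, Ugt2b from -0.0671 to 1.70 and Gstm3 from -0.0223 to 0.81. Array signals with no stated background leave the dim members least certain.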
